A study of Mus musculus with 120 samples.

Results

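Treadmill training was compared with no training in the soleus, a slow-twitch calf muscle, of ND5 mice, which carry a missense mutation in the mitochondrial gene for a subunit of respiratory complex I. The comparison rests on 12 of the 48 soleus libraries used here, out of 120 samples in the whole study of soleus and heart. It sets the 6 exercised ND5 mice coded B4, B9, B11, B69, B80 and B98 against the 6 non-exercised ND5 mice coded B3, B10, B19, B47, B70 and B85. The members were taken by these codes and by the treatment and strain labels, with no measured value involved.

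Both arms carry m.12352C>T in mitochondrial DNA (mtDNA), named S204F at the protein level, on a C57BL/6EiJ background with an intact Nnt gene (Nnt+/+). The exercised mice started at 16 weeks of age and ran for 45 min on every 2nd day, at 50% of maximal running capacity, for 8 weeks in all. The non-exercised mice were handled from the same age without training runs. Both arms were tested for exercise capacity before and after this period, and the design text places tissue collection 6 days after the last session. Among the exercised mice, B11, B69 and B80 are labelled responders and B4, B9 and B98 non-responders. The other strains used for comparison are ND6, CO1 and ANT1 mice. ND6 and CO1 mice carry other missense mutations of mtDNA, named P25L in ND6 and V421A in CO1. ANT1 mice lack Slc25a4, the heart and muscle ADP/ATP carrier. Each of these strains has 6 exercised and 6 non-exercised soleus libraries. The ND5 mutation is inherited through mtDNA and is not limited to muscle. Every ND5 mouse has it, so neither arm shows training in the absence of the mutation. Non-mutant control soleus was not analysed here.

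Complex I takes electrons from NADH and passes them to ubiquinone while pumping protons out of the mitochondrial matrix. Its membrane arm includes ND5, an mtDNA-encoded subunit at the far end of the proton-pumping part. Repeated endurance exercise is known to raise mitochondrial content in muscle through nuclear regulators such as PGC-1α (Ppargc1a), which increase transcripts of both nuclear and mtDNA-encoded respiratory subunits. Muscle that is being repaired or rebuilt transiently expresses embryonic contractile genes, collagens and cell cycle genes.

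The mutated site lies in mt-Nd5 (GRCm38, chrM:11742-13565, plus strand, a single coding exon without introns) at position 611 of 1824 coding bases, the second base of codon 204, where the reference codon is TCC. The reference bases around it, from the GENCODE vM21 transcript, are shown because every library in the comparison comes from a mouse mutated here, and the capital marks the base that the label gives as changed, C12352T.
mt-Nd5, chrM:12322-12382: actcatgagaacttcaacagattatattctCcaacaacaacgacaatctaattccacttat
The deposited values are summed per gene and hold no base calls, so the allele itself was not checked in any library.

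Gene counts were compared as counts per 1000000 (CPM), scaled to library totals corrected for composition by the trimmed mean of M values. The library totals were 12.5 to 18 M expected counts (M is 1000000 counts) in exercised and 10.2 to 13.8 M in non-exercised ND5 soleus. Exercised libraries held more counts, by 2.65 M on average (14.9 ± 2.37 M against 12.3 ± 1.24 M, SD, n = 6 each, two-sided exact permutation p = 0.0476), but the exact permutation p was over 0.05 without any 1 of B69, B80, B11, B70, B19, B85, B3 or B10, and 0.0996 without B10, where the difference was 2.23 M. Transcripts of slow fibres and adult myosins were abundant in every library: by FPKM, which corrects for length, Myh7, the slow myosin heavy chain, made up 35.6 to 48.1% of 4 adult myosin heavy chains in exercised and 36.9 to 50.9% in non-exercised mice. Mouse B80 is labelled exercised in soleus and non-exercised in heart, and it was kept as the soleus label has it. Non-exercised B19, B70 and B85 and exercised B69 stood apart from the others on the first 2 principal components, which held 35.7% and 18% of the variance. The 3 non-exercised libraries had the highest summed embryonic muscle markers, and B69 had the highest macrophage marker sum of its arm and the lowest fibroblast marker sum of all 12. Results are therefore also given without B19, B70 and B85, or without B69 and B11, where they changed most. B11 did not stand apart on these components, and shared with B69 the highest values of several stress-response genes below. Both choices were made after the data were examined. A difference carried by the libraries left out shrinks by that choice. A given difference is also harder to detect with fewer mice. The labels do not tie libraries to lanes, extraction days or litters.

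No gene passed the test for training in ND5 soleus. Of 13935 genes tested by edgeR's quasi-likelihood test, 0 had a Benjamini-Hochberg adjusted p under 0.05 (0% of genes), and the smallest adjusted p was 0.0754. At an unadjusted p under 0.05 there were 2086 genes (15.0% of those tested), 875 higher (6.28%) and 1211 lower (8.69%) in exercised mice. DESeq2 on the same libraries called 52 genes, 19 higher and 33 lower. The count also depended on single libraries: it was 180 without exercised B9, 421 without non-exercised B10 and 66 without non-exercised B47, and 0 without any other single ND5 library. Called in all 3 of these reduced comparisons were 55 genes, of which DESeq2 also called 35 with all libraries. These comparisons share most of their libraries, so the overlap is not independent evidence. B9 had the highest summed embryonic muscle markers of the exercised arm (493 CPM) and B10 the lowest of the non-exercised arm (60.8 CPM). Leaving out either widens that difference between the arms. Without B80 the count was 0, with 1953 genes at an unadjusted p under 0.05. Without B19, B70 and B85 together it was also 0, with 450 genes at that level (288 higher and 162 lower of 14267 tested), and without B11 and B69 together 0, with 1858.

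The 5 genes with the smallest p in this comparison, Lgals3bp, Gatm, Lig1, Stmn1 and Fgf11, had lower values in exercised mice. Lgals3bp, which encodes a secreted galectin-binding glycoprotein, had 4.75, 5.30 and 5.83 CPM as lowest, median and highest in exercised mice, against 6.34, 9.03 and 13.9 CPM in non-exercised mice. All 6 exercised mice lay below all 6 non-exercised mice, and the log2 fold change was -0.83 ± 0.17 (SE), with an adjusted p of 0.0754. Such separation of the arms was seen for 43 genes (0.309% of those tested), 27 with exercised mice higher (0.194%) and 16 lower (0.115%). Gatm, the first enzyme of creatine synthesis, had 1.98, 2.56 and 3.53 CPM in exercised mice, against 2.86, 6.69 and 21.6 CPM in non-exercised mice. Its highest values were those of non-exercised B70, B85 and B19, while B10, B47 and B3 had 2.86 to 4.02 CPM, and the log2 fold change was -1.96 ± 0.41 (adjusted p = 0.0754). Stmn1, a microtubule-destabilising protein of dividing and differentiating cells, differed by -1.55 ± 0.33, and Fgf11, an intracellular member of the fibroblast growth factor family, by -1.32 ± 0.28, both with an adjusted p of 0.0754.

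Several other genes kept the arms apart. Hip1, an adaptor of clathrin-coated vesicles, had 22.4, 25.7 and 27.6 CPM in exercised mice, against 28.3, 33.7 and 34.5 CPM in non-exercised mice, with no overlap (log2 fold change -0.36 ± 0.08, adjusted p = 0.108). Scamp5, a secretory carrier membrane protein, had 1.31, 1.54 and 2.29 CPM in exercised mice, against 2.48, 3.25 and 4.39 CPM in non-exercised mice, again without overlap (-1.01 ± 0.24, adjusted p = 0.108). Ttyh3, a membrane protein of the tweety family, had 4.24 to 6.75 CPM in exercised and 7.31 to 13.3 CPM in non-exercised mice (-0.73 ± 0.18, adjusted p = 0.108). In the other direction, Mrpl35, a protein of the large mitochondrial ribosomal subunit, had 29.5, 31.6 and 33.5 CPM in exercised mice, against 24.4, 25.3 and 27.6 CPM in non-exercised mice. Every exercised mouse was above every non-exercised mouse, but the adjusted p was 0.108 (log2 fold change 0.30 ± 0.07). Gtpbp4, a GTPase of ribosome assembly in the nucleolus, had 54.4 to 78.9 CPM in exercised and 46.6 to 51.7 CPM in non-exercised mice, also separated, with B69 highest (0.28 ± 0.06, adjusted p = 0.108).

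The share of all counts that came from mtDNA genes was higher in exercised than in non-exercised mice. It was 18.5% ± 0.913 in exercised and 15.7% ± 2.17 in non-exercised mice (SD, n = 6 each), a difference of 2.75 percentage points (two-sided exact permutation p = 0.0152, and 0.0303 adjusted over the 2 library measures tested). Exercised mice lay between 17.8 and 20.2%, and all were above 5 of the 6 non-exercised mice, which lay between 12.9 and 16.5%. Non-exercised B10 was the exception at 19.3%. Counting the 13 mRNAs alone gave 17.7% in exercised and 15.2% in non-exercised mice, a difference of 2.57 points with the same exact p. Leaving out single libraries gave differences of 2.18 to 3.47 points, with exact permutation p-values of 0.00216 (without B10) to 0.0390 (without B80, a difference of 2.40 points). Without non-exercised B19, B70 and B85 together, which include the lowest shares of the study's ND5 soleus, the difference was 1.22 points and no longer passed (exact permutation p = 0.179). A share of counts does not tell more mitochondrial RNA per fibre from a different mix of cells or from less other RNA. The library total, which differed between the arms as well, was highest in B80, as was the mtDNA share, and its part in this result was not tested.

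**Figure D1:**
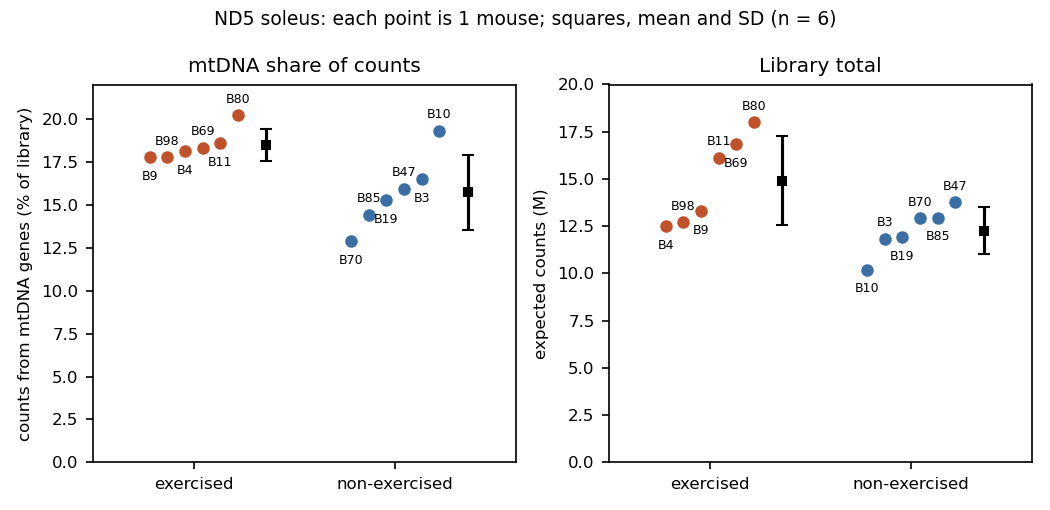
Percent of counts from mtDNA genes (left) and library total in M expected counts (right) for each ND5 soleus library, exercised left of non-exercised; points are mice and squares with bars are the mean and SD (n = 6). The 6 exercised mice lie between 17.8 and 20.2% mtDNA, and non-exercised mice between 12.9 and 19.3%, with B70 lowest and B10 highest.

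Among the mtDNA-encoded mRNAs, all 13 had higher mean levels in exercised mice, with a median log2 fold change of 0.35, against -0.00 over all genes tested. Of these, 8 were higher at an unadjusted p under 0.05, where 6.28% of all genes were, and 0 passed adjustment. mt-Nd5 itself, the mutated subunit, had 6905, 9725 and 10548 CPM in exercised mice, against 4574, 6902 and 10579 CPM in non-exercised mice. Non-exercised B10 was as high as the highest exercised mouse and B70 was lowest, and the log2 fold change was 0.39 ± 0.16 (adjusted p = 0.215). mt-Co1, the catalytic subunit of cytochrome c oxidase, had 53822, 64476 and 74156 CPM in exercised mice, against 33549, 48332 and 65481 CPM in non-exercised mice (0.39 ± 0.14, adjusted p = 0.182). mt-Cytb, the mtDNA-encoded subunit of complex III, differed by 0.35 ± 0.13 (adjusted p = 0.203). mt-Nd6, the complex I subunit mutated in the ND6 strain, differed by 0.26 ± 0.12 (adjusted p = 0.273). All 13 were still above 0 without B19, B70 and B85, with a median of 0.15 and 0 at an unadjusted p under 0.05.

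Nuclear genes of oxidative phosphorylation had small positive differences in the same libraries. All 36 nuclear complex I subunits tested were above 0, with a median log2 fold change of 0.16 and 18 at an unadjusted p under 0.05, where 6.28% of all genes were higher at that level. Ndufb4, an accessory subunit of the complex I membrane arm, had 60.5, 61.9 and 71.8 CPM in exercised mice, against 43.1, 51.3 and 59.5 CPM in non-exercised mice. The arms did not overlap, with non-exercised B10 closest, at 59.5 CPM, to the lowest exercised mouse, B69, at 60.5 CPM (log2 fold change 0.30 ± 0.09, adjusted p = 0.15). Ndufb11, another membrane-arm subunit, differed by 0.27 ± 0.09 (adjusted p = 0.167), and Ndufaf3, a complex I assembly factor, by 0.25 ± 0.07 (adjusted p = 0.118). Of 14 assembly factors, 11 were above 0 (median 0.12).

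The further complexes were alike in size and direction. Complex III and cytochrome c had a median of 0.16, with 5 of 10 at an unadjusted p under 0.05, and ATP synthase 0.15, with 6 of 15, all above 0 in both lists. Among all genes, 6.28% were higher and 8.69% lower at that level. Complex IV subunits had a median of 0.20, with 9 of 14 higher and 1 lower at that level. Cox6a2, the heart and muscle isoform of subunit 6a, had 831, 849 and 889 CPM in exercised mice, against 558, 693 and 818 CPM in non-exercised mice, without overlap (0.33 ± 0.10, adjusted p = 0.132). The lower one was Cox6a1, the isoform of the same subunit found in most other tissues, with 17.9, 22 and 24.5 CPM in exercised mice, against 21.8, 27.0 and 32.9 CPM in non-exercised mice, where B70, B85 and B19 were highest (-0.31 ± 0.12, adjusted p = 0.199). The median without B19, B70 and B85 was 0.09 for complex III and cytochrome c, 0.10 for ATP synthase and 0.12 for complex IV, with 0 of 10, 1 of 15 and 0 of 14 members higher at that level. In that setting 2.02% of all genes were higher.

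Fuel oxidation followed the same pattern. All 24 genes of the tricarboxylic acid cycle and pyruvate oxidation were above 0 (median 0.19, 13 at an unadjusted p under 0.05), among them Idh3b, a subunit of the NAD-dependent isocitrate dehydrogenase, at 0.28 ± 0.09, and Sdhb, the iron-sulfur subunit of succinate dehydrogenase, at 0.28 ± 0.10. Fatty acid uptake and oxidation had a median of 0.25, with 15 of 27 at that level. Among all genes, 6.28% were higher at that level. Eci1, which isomerises unsaturated acyl-CoA for β-oxidation, had 116, 161 and 174 CPM in exercised mice, against 64.8, 132 and 151 CPM in non-exercised mice (0.41 ± 0.15, adjusted p = 0.184). In 5 of 6 exercised mice it exceeded every non-exercised mouse, and exercised B9 was the one that did not. Acadm, the medium-chain acyl-CoA dehydrogenase, differed by 0.33 ± 0.11 (adjusted p = 0.171), and Hadhb, the thiolase subunit of the trifunctional protein, by 0.35 ± 0.12 (adjusted p = 0.176).

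Regulators of mitochondrial biogenesis and mitochondrial ribosomal proteins had smaller medians than the lists of fuel oxidation. Ppargc1a had 71.9, 104 and 170 CPM in exercised mice, against 48.6, 74.1 and 194 CPM in non-exercised mice, with the highest value of all in non-exercised B10 (0.37 ± 0.40, adjusted p = 0.693). Of 24 biogenesis regulators, 4 were higher at an unadjusted p under 0.05, with a median of 0.14, and without B19, B70 and B85 1 was higher and 12 of 24 were above 0. Mitochondrial ribosomal proteins had a median of 0.08, with 14 of 76 higher (18.4%) and 0 lower at that level. Over all genes tested, 6.28% were higher. In 3 of 76 every exercised mouse was above every non-exercised mouse, against 27 of all 13935 genes (0.194%). Cytosolic ribosomal proteins had a median of 0.03, with 4 of 75 higher (5.33%), near the share over all genes. Without B19, B70 and B85 all 75 were above 0, with a median of 0.17. In that setting 24 of them (32%) were higher at an unadjusted p under 0.05, where 2.02% of all genes were. Prdx3, a peroxidase of the mitochondrial matrix, differed by 0.22 ± 0.06 (adjusted p = 0.116), and Txnrd2, the mitochondrial thioredoxin reductase, by 0.30 ± 0.08 (adjusted p = 0.113). Nnt, the transhydrogenase that makes NADPH in mitochondria and is intact in this background, had 213, 384 and 445 CPM in exercised mice, against 154, 282 and 457 CPM in non-exercised mice. It overlapped widely between the arms (0.32 ± 0.24, adjusted p = 0.557), and without B19, B70 and B85 its sign turned (-0.17).

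These respiratory differences were smaller without the 3 non-exercised libraries with the lowest mtDNA share. A smaller difference follows from leaving out the lowest libraries of an arm, which leaves only B3, B10 and B47 in it. With these fewer mice, genes higher at an unadjusted p under 0.05 also fell over all genes, from 6.28% to 2.02%. Without B19, B70 and B85, complex I had a median of 0.09, the tricarboxylic acid cycle 0.01 and fatty acid oxidation 0.04, with 1 of 36, 0 of 24 and 0 of 27 members higher at an unadjusted p under 0.05, against 288 of 14267 genes (2.02%) overall. Without B80 the median was 0.16 for complex I, 0.19 for the tricarboxylic acid cycle and 0.22 for fatty acid oxidation, and without B11 and B69 it was 0.17, 0.18 and 0.30 for the same lists and 0.33 for the mtDNA mRNAs. Without non-exercised B10, 4 of 13 mtDNA mRNAs, 3 of 36 complex I subunits and 4 of 24 tricarboxylic acid cycle genes passed adjustment, all higher in exercised mice, among 421 of 14079 genes called in all (2.99%).

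**Figure D2:**
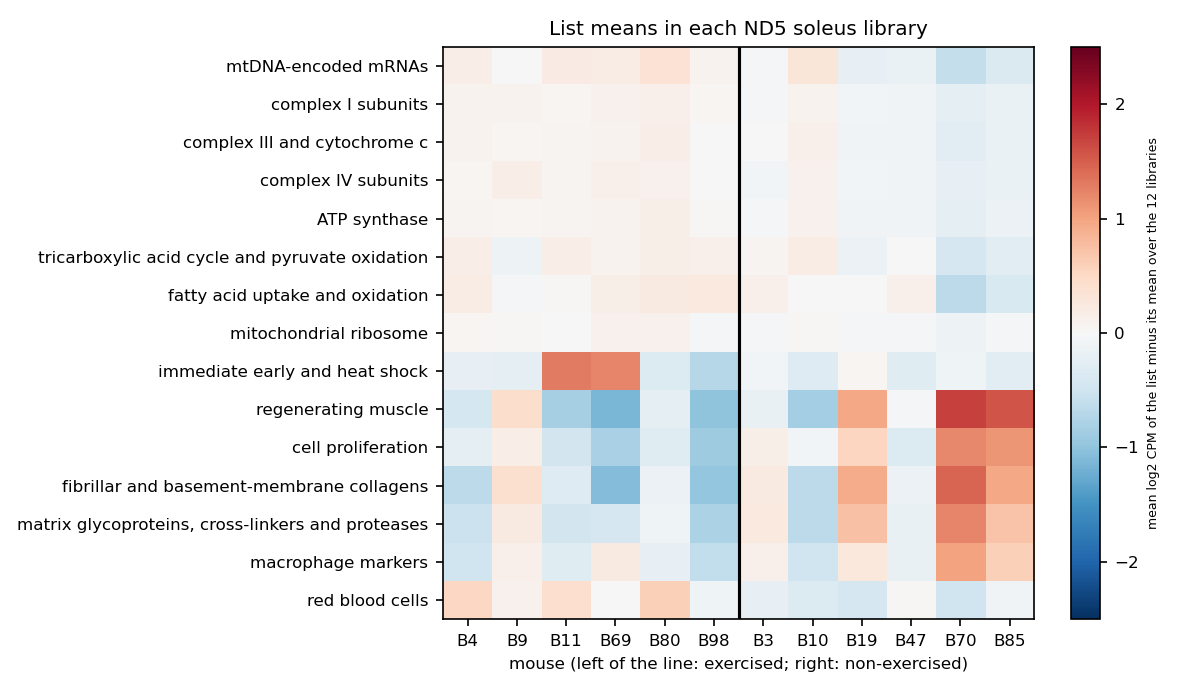
Mean log2 CPM of 15 gene lists in each ND5 soleus library, as the difference from the list's mean over the 12 libraries (colour), with exercised mice left of the black line. The regenerating muscle, proliferation and collagen lists are highest in non-exercised B70, B85 and B19, and the mtDNA, tricarboxylic acid cycle and fatty acid lists are lowest in B70 and B85; the immediate early list is highest in exercised B11 and B69.

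Genes of regenerating muscle had the largest negative median of the 15 lists shown by library. Of 16 tested, 9 were lower and 0 higher at an unadjusted p under 0.05, where 8.69% of all genes were lower, and the median log2 fold change was -1.38. Actc1, the cardiac α-actin that skeletal muscle expresses during its formation, had 19.1, 32.7 and 66.1 CPM in exercised mice, against 31.3, 101 and 268 CPM in non-exercised mice (-1.79 ± 0.41, adjusted p = 0.108). Myh3, the embryonic myosin heavy chain, had 17.9, 84.6 and 404 CPM in exercised mice, against 46.5, 547 and 1924 CPM in non-exercised mice (-2.60 ± 0.87, adjusted p = 0.167). For both genes non-exercised B70, B85 and B19 lay above all other libraries, exercised B9 came next, and the remaining non-exercised mice lay within the exercised range. In bulk muscle, fewer fibres of this kind and less of their RNA per fibre cannot be told apart.

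The promoters of these 2 genes are printed because their transcripts varied together over the 12 mice. Capitals mark an E-box (CANNTG, the sequence class bound by myogenic factors such as MyoD and myogenin) and, in Actc1 only, a CArG box, the element bound by serum response factor; both motifs read the same on either strand, and they do not overlap here. Each sequence runs from 250 bases before to 50 after the gene's start and is taken from RefSeq on GRCm38.p6.
Actc1, chr2:114052826-114053125, minus strand: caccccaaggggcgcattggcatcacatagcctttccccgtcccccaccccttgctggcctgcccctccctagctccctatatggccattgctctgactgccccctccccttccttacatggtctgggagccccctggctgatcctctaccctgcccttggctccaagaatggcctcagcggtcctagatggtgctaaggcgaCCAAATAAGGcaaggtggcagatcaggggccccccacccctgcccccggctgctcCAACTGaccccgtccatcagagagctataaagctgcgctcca
Myh3, chr11:67078050-67078349, plus strand: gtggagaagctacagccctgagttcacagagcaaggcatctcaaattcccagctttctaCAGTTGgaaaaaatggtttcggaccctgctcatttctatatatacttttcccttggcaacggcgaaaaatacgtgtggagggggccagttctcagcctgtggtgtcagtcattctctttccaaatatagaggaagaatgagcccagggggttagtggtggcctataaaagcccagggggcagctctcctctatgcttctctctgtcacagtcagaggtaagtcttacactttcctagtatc
An E-box was present in 8 of the 11 regenerating-muscle promoters found in the table (72.7%), against 23756 of all 32851 promoters (72.3%). A CArG box was present in 1 of these 11 (9.09%), against 535 of all promoters (1.63%).

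Further members of the list were also highest in non-exercised B70 and B85. Myh8, the perinatal myosin heavy chain, had 3.32, 14.3 and 71.8 CPM in exercised mice, against 8.76, 80.7 and 366 CPM in non-exercised mice (-2.53 ± 0.76, adjusted p = 0.142). Tnnt2, the cardiac troponin T of developing muscle, differed by -1.88 ± 0.49 (adjusted p = 0.112). Chrng, the fetal subunit of the acetylcholine receptor, differed by -2.25 ± 0.65 (adjusted p = 0.125), and Tmem8c, the myoblast fusion factor also called Mymk, by -2.19 ± 0.77 (adjusted p = 0.176). Myog, a transcription factor of muscle differentiation, had 4.24 to 16.7 CPM in exercised and 4.20 to 38.0 CPM in non-exercised mice (-0.96 ± 0.42, adjusted p = 0.264). The summed markers Myh3, Myh8, Myog and Mymk ranged from 38.1 to 493 CPM in exercised and from 60.8 to 2279 CPM in non-exercised mice, where B85, B70 and B19 had 2279, 1932 and 1018 CPM and the other 3 at most 247 CPM. Without these 3 libraries the median over the list was 0.02, with 9 of 16 members above 0 and 0 at an unadjusted p under 0.05. Without B80 it was -1.39, and without B11 and B69 -1.35.

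**Figure D3:**
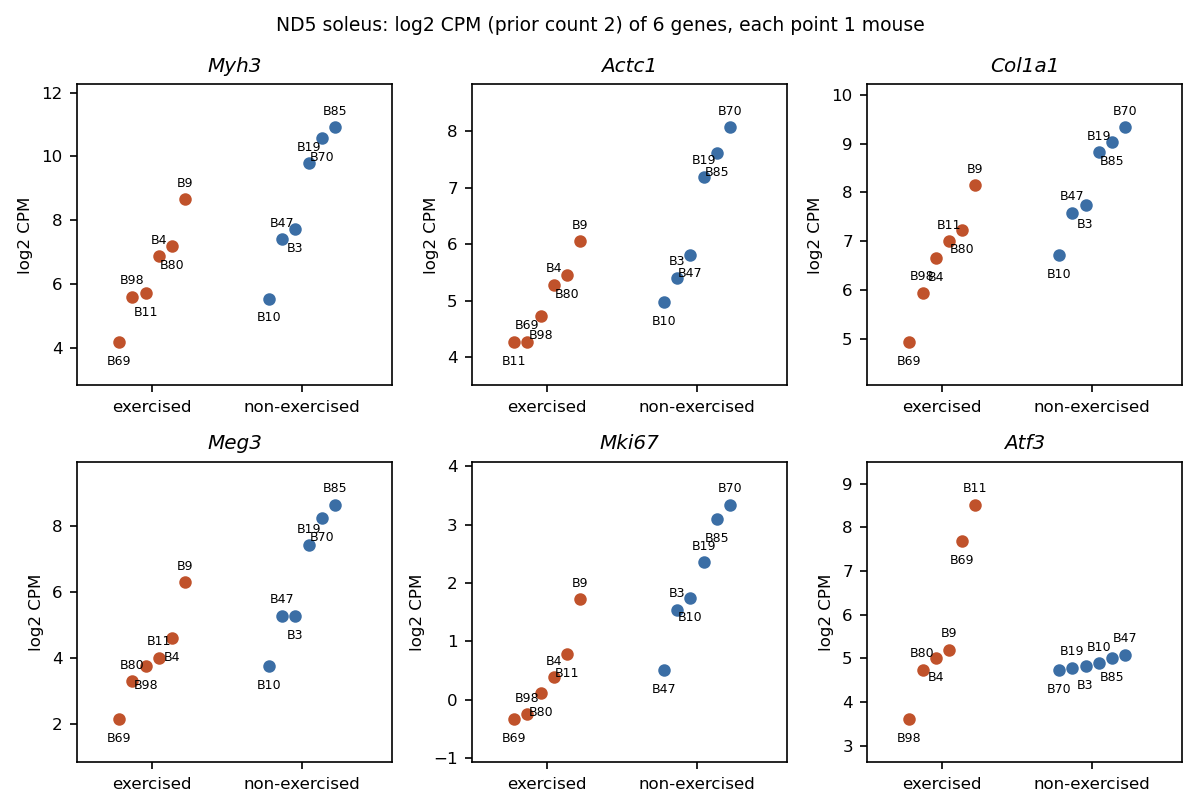
Log2 CPM of 6 genes in each ND5 soleus library, exercised left of non-exercised, each point 1 labelled mouse and each panel with its own vertical scale. Non-exercised B19, B70 and B85 are the 3 highest for Myh3, Actc1, Col1a1, Meg3 and Mki67, and exercised B11 and B69 are the 2 highest for Atf3.

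Matrix genes were arranged in the same way. All 18 collagens tested were below 0, with a median of -1.06 and 16 at an unadjusted p under 0.05, where 8.69% of all genes were lower. Col1a1, a chain of type I collagen, had 30.3, 114 and 284 CPM in exercised mice, against 104, 333 and 644 CPM in non-exercised mice (-1.50 ± 0.52, adjusted p = 0.171). Exercised B69 was lowest, and non-exercised B10, B47 and B3 lay within the exercised range. Col3a1, the chain of type III collagen, differed by -1.17 ± 0.50 (adjusted p = 0.250), Col6a3 of type VI by -1.17 ± 0.40 (adjusted p = 0.171), and Col18a1 of basement membranes by -1.06 ± 0.27 (adjusted p = 0.108). Among 31 matrix glycoproteins, cross-linkers and proteases, 15 were lower and 0 higher at that level (median -0.64). Tnc, a matrix protein of tissue repair, had 1.63, 7.99 and 30.7 CPM in exercised mice, against 5.36, 45.3 and 153 CPM in non-exercised mice (-2.24 ± 0.73, adjusted p = 0.154). Postn, a matrix protein of fibrosis and repair, differed by -1.59 ± 0.65, and Lox, the collagen cross-linking enzyme, by -1.42 ± 0.46. Without B19, B70 and B85, collagens had a median of -0.26, with 14 of 18 below 0 and 0 at an unadjusted p under 0.05, and the matrix glycoprotein list had -0.06. Without B11 and B69 the median of collagens was -0.90.

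Cell cycle genes had lower values in exercised mice. Of 15 tested, all were below 0 and 11 were lower at an unadjusted p under 0.05 (median -0.94), where 8.69% of all genes were lower. Mki67, a marker of cycling cells, had 0.654, 1.06 and 3.16 CPM in exercised mice, against 1.28, 4.10 and 9.99 CPM in non-exercised mice (-1.90 ± 0.55, adjusted p = 0.125). Top2a, the topoisomerase of dividing cells, differed by -2.04 ± 0.60 (adjusted p = 0.125), Tpx2, a spindle assembly factor, by -1.59 ± 0.41, and Prc1, a protein of the midzone spindle, by -1.60 ± 0.40 (both adjusted p = 0.108). In exercised mice 5 of 6 values of Top2a, Tpx2 and Prc1 were below every non-exercised value, and B9 was the exception each time. The list's median without B19, B70 and B85 was -0.27, with 0 of 15 at an unadjusted p under 0.05. Without exercised B9, 4 of 15 passed adjustment, where 180 of all 14058 genes did (1.28%), and without non-exercised B10, 5 of 15, where 2.99% of all genes did.

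Markers of macrophages and fibroblasts also had negative medians. Macrophage markers had a median of -0.53 over 15 genes, with 2 lower at an unadjusted p under 0.05 (13.3%, where 8.69% of all genes were lower), and their summed level was 80.1 to 176 CPM in exercised and 92.1 to 255 CPM in non-exercised mice, highest in B70. C1qb, a complement component made by macrophages, had 7.96, 11.2 and 18 CPM in exercised mice, against 10.9, 17.9 and 32.3 CPM in non-exercised mice (-0.70 ± 0.29, adjusted p = 0.231). Fibroblast markers had a median of -0.29 over 10 genes, with summed levels of 50.4 to 174 CPM in exercised and 123 to 192 CPM in non-exercised mice. The macrophage median without B19, B70 and B85 was -0.14, with 1 higher and 0 lower at that level, and the fibroblast median -0.12, with 0 of 10. None of the 12 T cell, B cell and neutrophil genes passed the filter on low counts, and exercised B69 held the highest S100a8 and S100a9, at 1.69 and 3.87 CPM. Ucp1 and Elovl3, markers of brown fat, were at 0 in all 12 libraries. The part of these cell types in the matrix and cell cycle differences was not tested.

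A further set of genes is described singly: no list of imprinted genes was counted, Rian, Mirg and Peg3 were named for their small p, Igf2 as a member of the regenerating muscle list, and Meg3, Dlk1 and H19 after their values were seen. Meg3, Rian and Mirg, non-coding RNAs, and Dlk1, a membrane-bound Notch ligand family member, lie within chr12:109452823-109749460 on the plus strand (GRCm38, GENCODE vM21). Meg3 had 4.30, 14.9 and 78.7 CPM in exercised mice, against 13.4, 106 and 404 CPM in non-exercised mice (-2.74 ± 0.71, adjusted p = 0.112). Rian had 5.07, 8.80 and 45.3 CPM in exercised mice, against 7.06, 75.7 and 322 CPM in non-exercised mice (-3.11 ± 0.77, adjusted p = 0.108). Both were highest in non-exercised B85, B70 and B19, with exercised B9 above the other exercised mice. Mirg had 0 to 1.61 CPM in exercised and 0.357 to 25.7 CPM in non-exercised mice, and Dlk1 0 to 1.12 CPM in exercised and 0 to 13.8 CPM in non-exercised mice, so that their fitted fold changes rest on few counts. Igf2 on chromosome 7, the fetal growth factor, had 4.52, 19 and 59.5 CPM in exercised mice, against 13, 82.3 and 197 CPM in non-exercised mice (-2.14 ± 0.60, adjusted p = 0.125). Its neighbour H19, a non-coding RNA, differed by -0.37 ± 0.20 (adjusted p = 0.364), and Peg3, a zinc-finger gene on the same chromosome, by -1.22 ± 0.31 (adjusted p = 0.108). Without B19, B70 and B85 the log2 fold change was -0.34 for Meg3, -0.40 for Rian, -0.51 for Igf2, -0.38 for Peg3 and 0.079 for H19.

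Stress-response genes were higher in 2 exercised mice, not across the arm. Of 19 immediate early and heat shock genes, 12 were higher and 0 lower at an unadjusted p under 0.05 (median 0.29), where 6.28% of all genes were higher. Atf3, a stress-induced transcription factor, had 12.0, 34.2 and 367 CPM in exercised mice, against 26.6, 29.0 and 33.7 CPM in non-exercised mice (1.94 ± 0.48, adjusted p = 0.108). The values 367 and 206 CPM belonged to B11 and B69, both labelled responders, and the other 4 exercised mice had 12.0 to 36.5 CPM. Among these 4 were the remaining responder, B80, at 26.6 CPM, and the non-responders B9, B4 and B98 at 36.5, 31.9 and 12.0 CPM. Btg2, an anti-proliferative early response gene, had 229 CPM in B11 and 90.6 CPM in B69, against at most 42.6 CPM in non-exercised mice (1.09 ± 0.35, adjusted p = 0.154). Hspa1a, an inducible heat shock protein, had 324 and 291 CPM in the same 2 mice, against at most 114 CPM in non-exercised mice (1.07 ± 0.38, adjusted p = 0.182). Without B11 and B69, the median of the list was -0.14, Atf3 differed by -0.14 and 1 of 19 members was lower at an unadjusted p under 0.05. These 2 mice held the highest values of several genes named here and below, so a smaller difference without them follows from that choice.

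The same pair of mice led genes of mechanical load and of the integrated stress response. Xirp1, which marks remodelled and injured myofibrils, had 2339 CPM in B69 and 1367 CPM in B11, against 380 to 449 CPM in non-exercised mice (1.04 ± 0.36, adjusted p = 0.171). Flnc, the muscle filamin, had 5752 and 2578 CPM in B69 and B11, against 1201 to 1588 CPM in non-exercised mice (0.64 ± 0.23, adjusted p = 0.178). Murc, a cavin of muscle caveolae, had 114, 132 and 455 CPM in exercised mice, against 102, 108 and 126 CPM in non-exercised mice, with B69 highest and 5 of 6 exercised mice above all non-exercised ones (0.77 ± 0.18, adjusted p = 0.108). Nmrk2, a muscle kinase that makes NAD from nicotinamide riboside, had 404 CPM in B69 and 19.3 to 64.9 CPM in the other exercised mice, against 21 to 46.3 CPM in non-exercised mice (1.82 ± 0.44, adjusted p = 0.108). Atf4, the central factor of the integrated stress response, had 132, 159 and 289 CPM in exercised mice, against 105, 125 and 155 CPM in non-exercised mice (0.47 ± 0.13, adjusted p = 0.125), and its target Ddit3 differed by 0.60 ± 0.19 (adjusted p = 0.154). Of 22 genes of that response and its secreted factors, 5 were higher and 1 lower at an unadjusted p under 0.05 (median 0.10), and without B11 and B69 1 was higher and 1 lower (median 0.06). Of 13 load-responsive genes, 4 were higher at that level (median 0.21), and without B11 and B69 their median was -0.11, with 1 higher and 1 lower. Over all genes, 6.28% were higher and 8.69% lower at that level, and 4.95% and 8.16% without B11 and B69.

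Fibre type genes overlapped between the arms. The summed fast-muscle markers Myh4, Actn3, Pvalb and Mylk2 had a median of 650 CPM in exercised mice, against 2095 CPM in non-exercised mice. Exercised B98 was highest at 7474 CPM, and the next exercised mouse, B11, had 761 CPM. By median, Actn3 (131 against 299 CPM) and Pvalb (152 against 234 CPM) were lower in exercised mice, and Mylk2 was higher (209 against 197 CPM). Myh4, the fast IIb myosin that is sparse in a clean soleus, had 11.6, 120 and 5548 CPM in exercised mice, against 25.4, 1378 and 2207 CPM in non-exercised mice. Exercised B98 was highest and non-exercised B10, B19 and B47 next, and the log2 fold change was -0.19 ± 1.01 (adjusted p = 0.952). The value turned on single libraries and on the tool: it was -3.21 without B98, -1.64 by limma voom, and above 0 without any 1 of B4, B9, B10, B11, B19, B69 or B80 (at most 0.085). By FPKM, Myh4 made up 0.0376 to 13.9% of the 4 adult myosins in exercised and 0.0724 to 5.78% in non-exercised mice. Myh7 differed by 0.18 ± 0.14 (adjusted p = 0.570). Slow-fibre genes had a median of 0.13 over 15 genes and fast-fibre genes 0.04 over 17, with 2 slow genes higher, 2 slow genes lower and 2 fast genes lower at an unadjusted p under 0.05. At that level 6.28% of all genes were higher and 8.69% lower. With a fast-muscle score as a covariate, 3 genes passed adjustment for training, Stmn1, Gatm and Lgals3bp, all lower in exercised mice.

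Haemoglobin transcripts had higher values in exercised mice. Hba-a1, an α-globin, had 44, 59.6 and 69 CPM in exercised mice, against 31.3, 39.1 and 44.6 CPM in non-exercised mice, and 5 of 6 exercised mice lay above all non-exercised mice (0.60 ± 0.24, adjusted p = 0.218). Its reads can be shared with the near-identical Hba-a2. Hbb-bs, a β-globin, differed by 0.47 ± 0.25 (adjusted p = 0.368). The red cell list had a median of 0.58, with 3 of 5 higher at an unadjusted p under 0.05, where 6.28% of all genes were higher. The median without B19, B70 and B85 was 0.47, with 0 of 5 at that level. The summed red cell markers were 135 to 211 CPM in exercised and 104 to 141 CPM in non-exercised mice.

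Other gene lists of muscle, its vessels and fat had medians between -0.22 and 0.38. Over all genes tested, 6.28% were higher and 8.69% lower at an unadjusted p under 0.05. Atrophy and denervation genes had a median of 0.07, with 1 of 19 higher at an unadjusted p under 0.05, and glycolysis 0.08, with 4 of 22 higher and 1 lower. Excitation and calcium handling had 0.06, with 3 of 20 higher, and angiogenesis -0.04, with 2 of 20 lower. Chaperones of the endoplasmic reticulum had 0.01, with 2 of 18 higher. That list changed without B11 and B69, to a median of -0.22 with 15 of 18 below 0. In that setting 1 was higher and 10 were lower at an unadjusted p under 0.05, where 8.16% of all genes were lower. Antioxidant genes had 0.08, with 7 of 26 higher, including the mitochondrial Prdx3 and Txnrd2 above. Interferon-stimulated genes had -0.22, with 2 of 11 lower. White adipocyte genes had 0.38 and 0 of 12 at that level.

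Training had no called gene in the other strains either, and the test of the strain difference found 15 genes, all against ND6. Training in ND6 gave 688 genes at an unadjusted p under 0.05 (4.94%), in CO1 268 (1.92%) and in ANT1 350 (2.51%), with 0 passing adjustment in each. The training difference in ND5 minus the mean of the other 3 strains gave 0 called genes, with 1726 (12.4%) at an unadjusted p under 0.05. Against CO1 alone it gave 0 (619 unadjusted, 4.44%) and against ANT1 alone 0 (872 unadjusted, 6.26%). DESeq2 called 0 genes in these 3 comparisons as well. Against ND6 it was 15 (0.108% of genes), all with a lower training difference in ND5, and 2124 (15.2%) at an unadjusted p under 0.05.

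**Figure D4:**
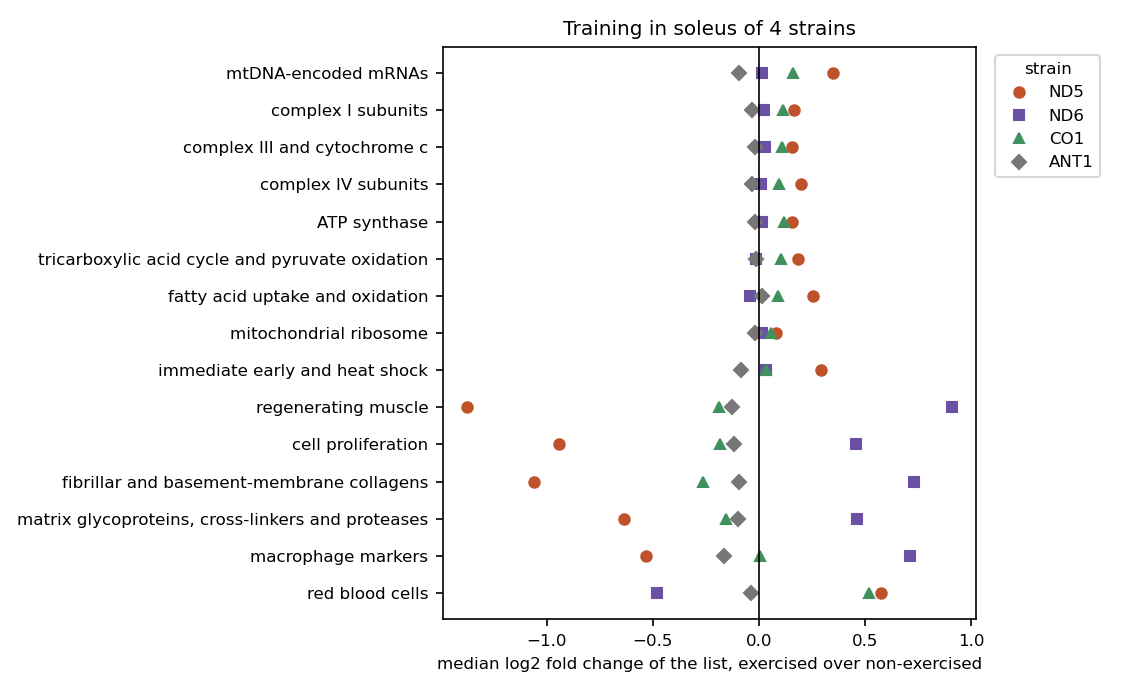
Median log2 fold change of 15 gene lists, exercised over non-exercised, in soleus of 4 strains (points, 6 mice per arm). For regenerating muscle the median was -1.38 in ND5 and 0.91 in ND6, and for collagens -1.06 in ND5 and 0.73 in ND6.

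The list medians of the 4 strains are set side by side without a test. Regenerating muscle had -1.38 in ND5, against 0.91 in ND6, -0.19 in CO1 and -0.13 in ANT1, and collagens had -1.06 in ND5, against 0.73 in ND6, -0.26 in CO1 and -0.10 in ANT1. Cell proliferation had -0.94 in ND5, against 0.46 in ND6, -0.19 in CO1 and -0.12 in ANT1, and macrophage markers had -0.53 in ND5, against 0.71 in ND6, 0.01 in CO1 and -0.17 in ANT1. For mtDNA-encoded mRNAs the medians were 0.35 in ND5, 0.01 in ND6, 0.16 in CO1 and -0.10 in ANT1, and red cell genes had 0.58 in ND5, -0.48 in ND6, 0.52 in CO1 and -0.04 in ANT1. No mtDNA-encoded mRNA passed the test of ND5 training minus the mean of the others.

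The 15 genes with a lower training difference in ND5 than in ND6 were Gatm, Stmn1, Actc1, Meg3, Rian, Mirg, Dlk1, Rlt1, Tsc22d1, Ehd3, Camta1, Aldh3b1, Mtus2, Capn11 and RP23-159L13.1. Actc1 had 19.1, 32.7 and 66.1 CPM in exercised ND5 mice, against 31.3, 101 and 268 CPM in non-exercised ND5 mice, while ND6 soleus had 22.6, 45.6 and 141 CPM in exercised mice, against 23, 34.7 and 43 CPM in non-exercised mice. The log2 training difference of Actc1 in ND5 minus that in ND6 was -2.60 ± 0.57 (adjusted p = 0.0435). Meg3 in ND6 had 10.6, 24.5 and 257 CPM in exercised mice, against 10.1, 13.2 and 27.0 CPM in non-exercised mice, and its difference between the strains was -4.73 ± 0.99 (adjusted p = 0.0242). Gatm differed by -2.87 ± 0.59 (adjusted p = 0.0230) and Stmn1 by -2.47 ± 0.48 (adjusted p = 0.0163). Smaller differences were found for Camta1, a calmodulin-binding transcription activator, at -0.49 ± 0.09 (adjusted p = 0.0163), and Tsc22d1, a transcriptional regulator of the TSC22 family, at -0.40 ± 0.09 (adjusted p = 0.0350). Dlk1, Rlt1, Mirg, Mtus2 and Capn11 had medians under 1 CPM in exercised ND5 mice.

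This set rested on a few libraries of both strains. No gene was called against ND6 without non-exercised ND5 B85, and likewise 0 without exercised ND6 mouse I59, whose summed regeneration markers were 1676 CPM, against 40.2 to 264 CPM in the other exercised and 44.3 to 169 CPM in the non-exercised ND6 mice. It was 9 without B70, 9 without B11, 8 without B98 and 9 without ND6 mouse I18, and it was larger without others: 416 without B10, 287 without B9, 173 without B47, 55 without B3, and 120, 138 and 55 without ND6 mice I50, I63 and I84. Without B19, B70 and B85 together it was 0, without B11 and B69 together 0, and with a regeneration score as a covariate 0. In each of these settings all of the 15 that were tested kept a lower difference in ND5.

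**Figure D5:**
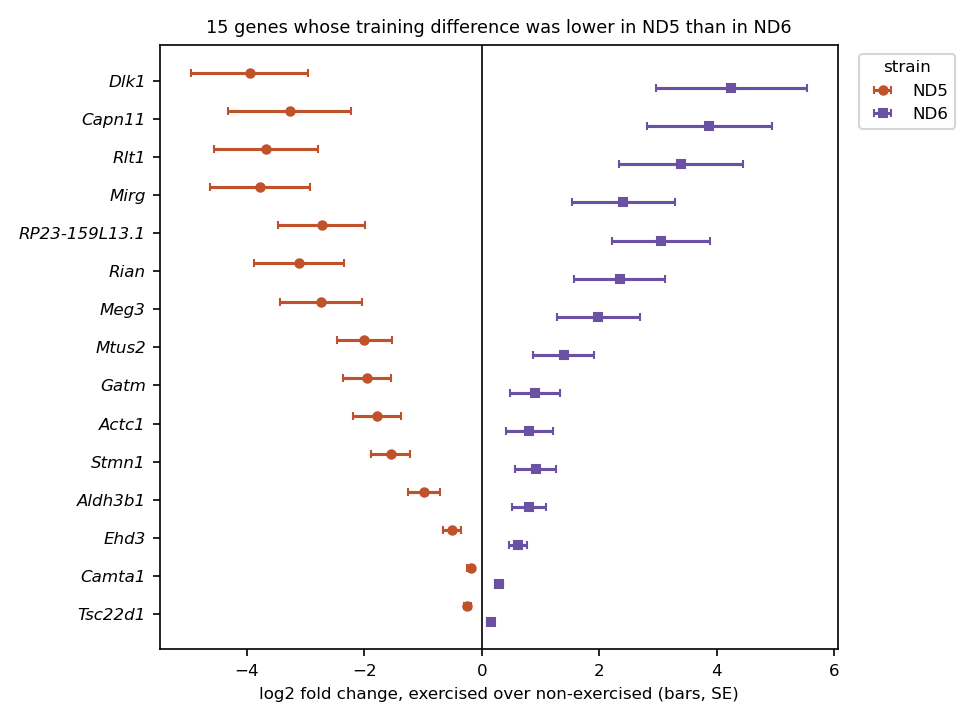
Training log2 fold change (exercised over non-exercised) with its SE in ND5 and ND6 soleus for the 15 genes whose training difference was lower in ND5 than in ND6 (adjusted p under 0.05). All 15 lie below 0 in ND5 and above 0 in ND6, from Tsc22d1 at -0.24 in ND5 and 0.15 in ND6 to Dlk1 at -3.95 in ND5 and 4.25 in ND6.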

How the data were processed

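RNA of soleus muscle was enriched for mRNA with oligo(dT), made into libraries with the NEBNext Ultra II kit and sequenced as paired ends on 3 flowcell lanes, per the labels' protocols; no source used here says whether the counting used strand. The authors deposited RSEM expected counts, which need not be whole, and FPKM values per gene for soleus, and the submitters' processing notes name STAR 2.5.2b, RSEM 1.2.28 and mm10. The deposited FPKM values were used only for shares among myosin genes. Of the columns in each soleus table, 48 were tied to samples by mouse code, and 12 that were not tied to a sample were not used. Replicate numbers only name the mice; nothing pairs them across arms, and each library is taken as 1 mouse, with litters and cages not stated.

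Expected counts were rounded and fitted with edgeR 4.0.16 in R 4.3.3 (filterByExpr, which kept 13935 of 53656 genes, TMM factors, quasi-likelihood F test). All 48 libraries shared 1 estimate of spread, with 1 mean per strain and arm. P-values were adjusted by Benjamini-Hochberg over all genes tested and called under 0.05. SE is the fold change divided by the square root of F, and errors given as ± beside a log2 value are SE. Library measures were compared by two-sided exact permutation over the 6 and 6 mice, which cannot give a p below 0.00216. The alternatives were RLE factors, no mtDNA genes, other filters, ND5 libraries alone, covariates for fast muscle and regeneration, limma 3.58.1 (voom), DESeq2 1.42.0 and leaving out each library. Each covariate was the mean log2 CPM of 4 markers: Myh4, Actn3, Pvalb and Mylk2 for fast muscle, and Myh3, Myh8, Myog and Mymk for regeneration. The scripts were tested on simulated data. No 2 of the 30 library pairs compared within the ND5 arms held identical counts.

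Genes were named by rule: mt-Nd5 and Nnt, the 15 smallest p in each direction among genes averaging log2 CPM 1 or more (none passed adjustment), the 4 smallest p of each gene list and the 8 smallest p in each direction for ND5 minus the mean of the other strains. Predicted and clone names were left out except where they were called. H19, Hba-a1, Cox6a1, Ppargc1a, Dlk1, Myh4, Rlt1, Capn11, Mtus2, Aldh3b1, Ehd3 and others outside the rule were named after their values were seen. The comparison and the gene lists were chosen with earlier results of these data known. "Rlt1" is spelled as in the file and had no match in the annotation.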

Additional observations from a re-analysis of the deposited data

Results flagged for a closer look

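Among the 162 groups of 6 ND5 libraries examined (library measures and named genes), 9 held 1 library set apart from the rest by a gap above Dixon's 95% critical value (5.56%); chance gives about 1 in 20. The mtDNA share of exercised mice was highest in B80, at 20.2%. Exercised B9 was lowest for Nnt, at 213 CPM, and for Eci1, at 116 CPM, and highest for H19, at 3284 CPM. Exercised B69 was highest for Murc (455 CPM), Gtpbp4 (78.9 CPM) and the actin-binding protein gene Twf2 (432 CPM). Exercised B80 was highest for Tsc22d1, at 159 CPM, and non-exercised B10 for Ppargc1a, at 194 CPM.

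The log2 training difference was lower in ND5 than in ND6, by a test of the difference itself, for 15 genes. It was -2.87 for Gatm, -2.47 for Stmn1, -2.60 for Actc1, -4.73 for Meg3, -5.46 for Rian, -6.19 for Mirg, -8.20 for Dlk1 and -7.06 for Rlt1. It was -0.40 for Tsc22d1, -1.12 for Ehd3, -0.49 for Camta1, -1.78 for Aldh3b1, -3.39 for Mtus2, -7.15 for Capn11 and -5.78 for RP23-159L13.1.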

How the results depend on the processing

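No paired analysis was possible because the labels give no replicate numbers: those used here follow accession order, only name the mice and pair none across the arms. The count of genes called for training in ND5 was 0 under most alternatives, 3 with the fast-muscle covariate, 52 with DESeq2 and 0 to 421 leaving out single libraries. The 15 calls of ND5 minus ND6 became 9 among genes averaging log2 CPM 1 or more, 3 with the fast-muscle covariate, 0 with the regeneration covariate, 2 with limma voom, 93 with DESeq2, 0 without B19, B70 and B85, 0 without B11 and B69, and 0 to 416 leaving out single libraries. ND5 minus the mean of the others, CO1 or ANT1 gave 0 calls under every alternative run. The difference in mtDNA share was 1.22 points without B19, B70 and B85 and 2.18 to 3.47 points leaving out single libraries; that in library total was 2.03 to 3.13 M, with p over 0.05 in 8 of 12. Log2 training differences changed sign without B19, B70 and B85 for Nnt (-0.17), Ppargc1a (-0.022), H19 (0.079), Myog (0.39) and Chrng (0.077), and with the regeneration covariate for H19 (0.087), Myog (0.46) and Tnc (0.39). Myog is 1 of the 4 markers in that covariate, so its sign there is not an independent result. Without B11 and B69, a pair chosen after the data were examined, log2 training differences changed sign for Atf3 (-0.14), Btg2 (-0.23), Xirp1 (-0.19), Flnc (-0.12) and Myh4 (0.33). That of Myh4 ran from -3.21 (without B98) to 0.085 (without B10) over single libraries. The cause was not tested. Depth limits the genes at a few CPM or less, whose fitted fold changes rest on few counts.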
